A study of Homo sapiens with 12 samples.

Results

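The breakdown of extracellular matrix was followed in MDA-MB-231 cells through 10 genes, 7 matrix metalloproteinases (MMP1, MMP3, MMP9, MMP10, MMP13, MMP14 and MMP15) and 3 tissue inhibitors of metalloproteinases (TIMP1, TIMP2 and TIMP3). They are 10 of the 24331 features of the deposited expression table, found there by gene symbol, and each symbol was found in exactly 1 feature. MDA-MB-231 is a human breast cancer line of invasive, mesenchymal-like character. Wild-type cells (WT) and cells in which CRISPR/Cas9 removed part of the core-regulatory element (CRE) of the ETS1 promoter (KO in the sample labels, ΔCRE here) were profiled by RNA-sequencing at 0, 6 and 24 h of PMA/Ionomycin, a phorbol ester combined with a calcium ionophore, with 2 biological replicates in each of the 6 groups and 12 libraries in all. The 0 h cells were mock treated, and no other allele or agent is named for any group. Whether the ΔCRE libraries come from 1 clone or several is not stated in the sources used here, so the deletion and the clone cannot be told apart in any difference between ΔCRE and WT cells.

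The library labelled ΔCRE 0 h replicate 1 stood apart from the other 11. Its FPKM values (fragment numbers corrected for transcript length and library size) summed to 1423335, against 566255 to 651080 in the other libraries. All 8 gut epithelium markers looked up were at 1 FPKM or more in it, and they summed to 3602 FPKM, against 2.15 to 3.39 FPKM elsewhere. The 6 fibroblast and stroma markers summed to 70.3 FPKM in it, against at most 3.25 FPKM elsewhere. The 6 luminal breast markers summed to 56.8 FPKM, against at most 6.76 FPKM, mostly through ERBB3 (44.5 FPKM) and TFF1 (8.65 FPKM). GATA3 (2.38 FPKM) and FOXA1 (1.24 FPKM) lay within the range of the other 11 libraries. ESR1 was 0 and PGR 0.0128 FPKM in it. The 8 markers of MDA-MB-231 cells were present in every library, with sums of 4109 to 5791 FPKM in the 11 libraries. ETS1, whose promoter was edited, measured 24.0 and 23.7 FPKM in WT cells at 0 h, 139 and 145 FPKM at 6 h and 36.2 and 39.7 FPKM at 24 h. In ΔCRE cells it measured 16.5 FPKM in replicate 2 at 0 h, 62.8 and 62.2 FPKM at 6 h and 29.3 and 30.7 FPKM at 24 h, and it was 5.08 FPKM in the library that stood apart. All tests below were made without that library, so that ΔCRE 0 h is a single library assumed to vary like the other groups, and the values with it are given beside the results. FPKM values do not keep fragment numbers, so depth is unknown here. In bulk samples, a change in the share of cells that express a gene and a change in its RNA per cell cannot be told apart.

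Matrix metalloproteinases are zinc-dependent endopeptidases that are made as inactive proenzymes and become active when their prodomain is removed. MMP1 and MMP13 are secreted collagenases that cut fibrillar collagen, MMP3 and MMP10 are stromelysins with broad substrates, and MMP9 is a gelatinase. MMP14 and MMP15 are anchored in the cell membrane, where MMP14 cuts collagen and activates proMMP2 and proMMP13. TIMPs bind the active sites of these enzymes in tight complexes, TIMP2 also takes part in proMMP2 activation by MMP14, and TIMP3 is held in the extracellular matrix. Phorbol esters are classical inducers of collagenase and stromelysin genes, whose promoters are known for AP-1 and ETS sites.

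MMP1, MMP3, MMP10 and MMP13 lie within a cluster of 9 MMP genes that spans 435.2 kb of chromosome 11. On hg19, with the GENCODE annotation of the same build, MMP10 covers chr11:102641233-102651359, MMP1 chr11:102660132-102668891, MMP3 chr11:102706532-102714340 and MMP13 chr11:102813724-102826461, all on the minus strand. The other enzymes are on separate chromosomes, MMP14 at chr14:23305769-23318250 (plus strand), MMP15 at chr16:58059658-58080805 (plus) and MMP9 at chr20:44637547-44645200 (plus). TIMP2 lies at chr17:76849059-76921469 (minus). TIMP1 at chrX:47441807-47446188 (plus) and TIMP3 at chr22:33197691-33259028 (plus) are each nested inside a synapsin gene on the opposite strand, SYN1 and SYN3, without overlap of exons. SYN1 was at most 0.255 FPKM and SYN3 at most 0.0232 FPKM in the 11 libraries. WTAPP1, on the strand opposite MMP1 and MMP3, shares exonic bases with both and was at most 0.0449 FPKM. Whether reads were counted by strand is not given in the sources used here, so the reads of MMP1, MMP3 and WTAPP1 where their exons overlap may be divided uncertainly.

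Promoter sequences from RefSeq (GRCh38.p14) were matched by symbol for 5 of the 10 genes, MMP10, MMP14, MMP15, TIMP1 and TIMP3. MMP1, MMP3, MMP9, MMP13 and TIMP2 had no entry. The stretches before the start of the 3 matched genes whose expression differed between ΔCRE and WT cells are shown, since ETS factors bind around a GGAA core. Each begins 250 bases before the RefSeq start and ends before the first annotated exon, and each matched a single place on hg19: chr14:23305544-23305768 for MMP14, chrX:47441585-47441806 for TIMP1 and chr22:33197441-33197690 for TIMP3, all on the plus strand. Capitals mark GGAA or its reverse complement TTCC.
MMP14: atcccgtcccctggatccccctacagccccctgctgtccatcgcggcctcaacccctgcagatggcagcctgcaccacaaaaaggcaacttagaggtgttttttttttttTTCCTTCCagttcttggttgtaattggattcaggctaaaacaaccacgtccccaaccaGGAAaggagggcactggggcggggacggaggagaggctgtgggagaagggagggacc
TIMP1: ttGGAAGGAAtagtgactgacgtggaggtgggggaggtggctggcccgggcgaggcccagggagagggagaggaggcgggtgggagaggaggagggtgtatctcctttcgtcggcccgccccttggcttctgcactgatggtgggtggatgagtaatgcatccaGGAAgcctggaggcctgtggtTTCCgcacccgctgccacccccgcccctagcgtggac
TIMP3: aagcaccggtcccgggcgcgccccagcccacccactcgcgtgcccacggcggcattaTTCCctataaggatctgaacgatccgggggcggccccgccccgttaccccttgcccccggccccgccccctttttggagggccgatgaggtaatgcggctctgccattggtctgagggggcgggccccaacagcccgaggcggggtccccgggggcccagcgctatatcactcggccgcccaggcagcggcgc
In the 250 bases before the start, GGAA occurred 4 times for MMP14 (1 of them past the end of the stretch shown), 4 times for TIMP1 and 1 time for TIMP3, counting both strands. It also occurred 2 times each for MMP10 and MMP15, and at least 1 time in 92.7% of all 35116 promoters of that table, so its presence sets none of these genes apart. The longer form AGGAAG, which contains GGAA, was found for TIMP1 only among the 5 genes and in 28.7% of all promoters. TGACTCA, the AP-1 consensus, was in none of the 5 windows and in 4.20% of all promoters, and its variant TGAGTAA was in the TIMP1 window and in 2.21% of all. The GC box GGGCGG was found for MMP14, MMP15, TIMP1 and TIMP3 and in 42.6% of all promoters, and TATAAA for MMP10 and in 10.7% of all. These are matches of letters, not measured binding, which the study examined at the MMP14 promoter by ChIP-PCR for ETS1.

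In unstimulated WT cells the inhibitors and MMP14 were expressed well above the other enzymes. TIMP1 had the highest level with 108 ± 14.5 FPKM (SD, n = 2), followed by TIMP2 with 39.6 ± 0.785 FPKM (SD, n = 2), MMP14 with 29.5 ± 2.80 FPKM (SD, n = 2) and TIMP3 with 19.6 ± 0.726 FPKM (SD, n = 2). The replicates of these 4 genes did not overlap with those of their neighbours in this order. MMP15 measured 0.979 and 0.910 FPKM, and MMP1, MMP3, MMP9, MMP10 and MMP13 were between 0 and 0.141 FPKM. The collagenases and stromelysins were thus at or near the bottom of the scale before stimulation.

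**Figure D1:**
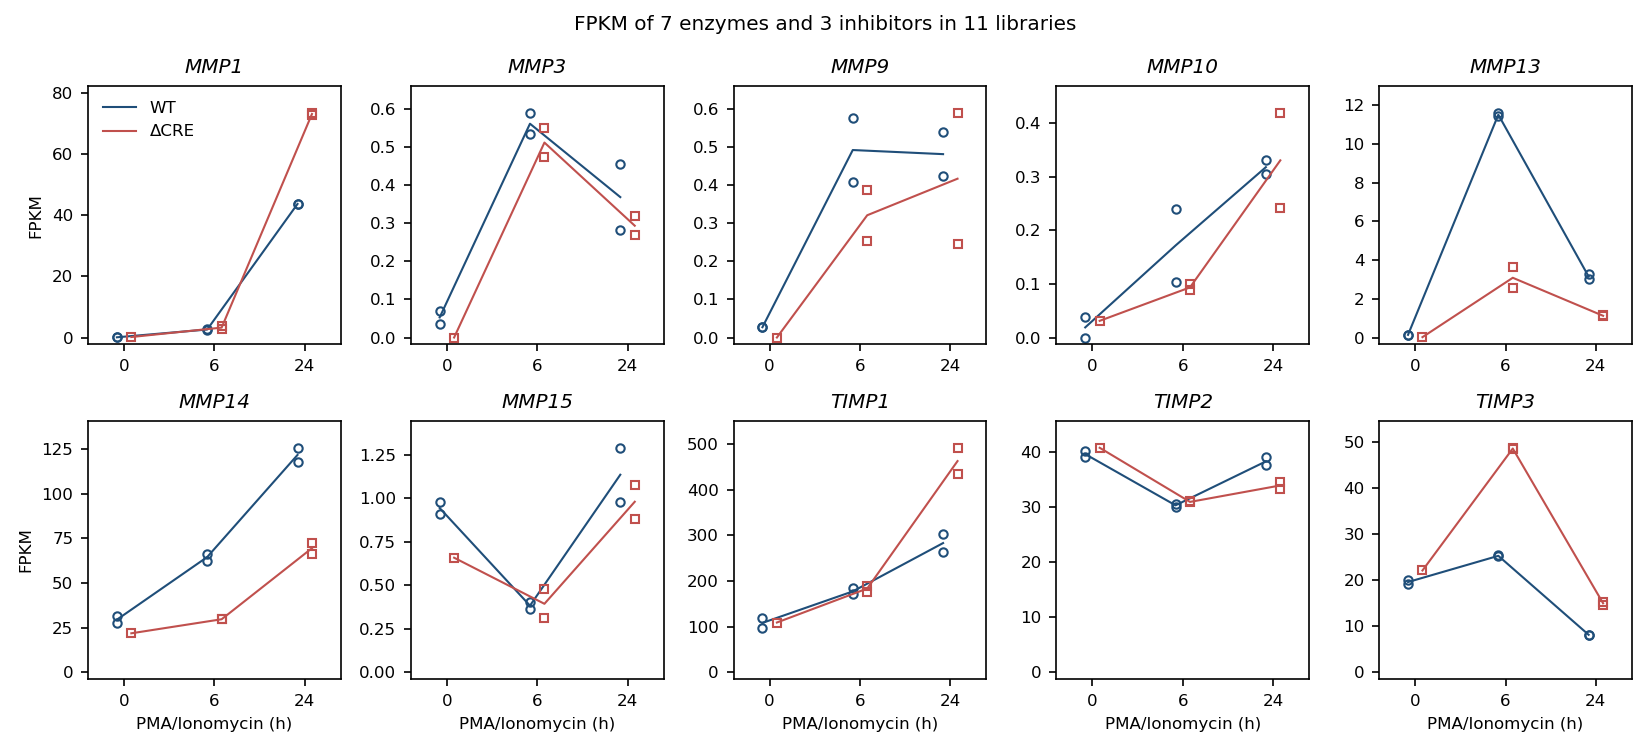
FPKM of each gene (vertical axes, own scale per panel) against hours of PMA/Ionomycin (horizontal axes, evenly spaced) in WT (blue circles) and ΔCRE cells (red squares), 1 symbol per library and lines through the group means, without ΔCRE 0 h replicate 1. MMP13 peaked at 6 h, MMP1, MMP14 and TIMP1 were highest at 24 h, TIMP3 was highest at 6 h and lowest at 24 h, and TIMP2 was lowest at 6 h in both genotypes.

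The genes followed different courses in WT cells after PMA/Ionomycin. Fold changes are differences of log2(FPKM + 1), which understate changes of genes at low FPKM, and p-values were adjusted over the 11256 features with a mean of at least 1 FPKM. The filter was passed by 6 of the 10 genes, and MMP1 and MMP13 passed it only through their stimulated libraries, so that a difference of those 2 genes from 0 h was built into their selection. At 6 h, 5 of the 6 tested genes rose (MMP1, MMP13, MMP14, TIMP1 and TIMP3), beside 23.3% of all tested features, and 1 fell (TIMP2), beside 21.1%. At 24 h, 4 were higher than at 0 h (MMP1, MMP13, MMP14 and TIMP1), beside 26.5% of all, and 1 was lower (TIMP3), beside 28.2%. Between 6 and 24 h, 4 rose (MMP1, MMP14, TIMP1 and TIMP2), beside 20.5% of all, and 2 fell (MMP13 and TIMP3), beside 26.3%. The comparisons with 0 h share the 0 h libraries. After rescaling to TPM, the median of all features moved to -0.12 at 6 h, and the share of higher among all calls went from 52.5% to 35.0% at 6 h and from 43.7% to 64.3% between 6 and 24 h, while each of the 6 genes kept its direction.

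MMP13, a collagenase first described in breast carcinoma, was the early enzyme. It measured 0.135 and 0.141 FPKM at 0 h, 11.4 and 11.6 FPKM at 6 h and 3.26 and 3.04 FPKM at 24 h in WT cells. The groups did not overlap, and the peak lay at 6 h. The rise by 6 h was 3.46 ± 0.118 on the log2 scale (SE, adjusted p = 1.6e-07). MMP13 then fell by 1.59 ± 0.118 (SE, adjusted p = 2.9e-05) to 24 h, where it stayed 1.87 ± 0.118 (SE, adjusted p = 6.0e-06) above 0 h. At 24 h the mean FPKM was 27.4% of that at 6 h.

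MMP1, the interstitial collagenase, reached its highest level late. It measured 0.0331 and 0.104 FPKM at 0 h, 2.75 and 2.48 FPKM at 6 h and 43.6 and 43.7 FPKM at 24 h in WT cells. Both replicates moved together, and most of the rise in FPKM came after 6 h. On the log2 scale the step from 0 to 6 h was 1.76 ± 0.0937 (SE, adjusted p = 2.5e-06) and the step from 6 to 24 h was 3.63 ± 0.0937 (SE, adjusted p = 9.1e-08). The ratio of mean FPKM went the other way, 38.1-fold in the first step and 16.7-fold in the second. The first ratio starts from very low values at 0 h, which are imprecise. MMP1 stood below MMP13 at 6 h and above it at 24 h, in every WT library of both times.

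MMP14 rose in both steps. It measured 31.5 and 27.5 FPKM at 0 h, 66.6 and 62.6 FPKM at 6 h and 126 and 118 FPKM at 24 h in WT cells. No group overlapped with the next, and the mean was 2.19-fold that of 0 h at 6 h and 4.13-fold at 24 h. The first step was 1.11 ± 0.0769 on the log2 scale (SE, adjusted p = 1.2e-05) and the second 0.90 ± 0.0769 (SE, adjusted p = 5.3e-05). MMP14 was the most abundant of the 7 enzymes in all 6 WT libraries.

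TIMP1, a secreted inhibitor of most MMPs, followed the same direction as MMP14 in WT cells. Its values were 119 and 98.0 FPKM at 0 h, 184 and 171 FPKM at 6 h and 303 and 263 FPKM at 24 h. The mean was 1.64-fold that of 0 h at 6 h (log2 difference 0.71 ± 0.109, SE, adjusted p = 0.0011) and 2.61-fold at 24 h (1.38 ± 0.109, SE, adjusted p = 2.1e-05). The 3 groups did not overlap.

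TIMP3, the matrix-bound inhibitor, rose and then fell below its starting level. It measured 19.1 and 20.1 FPKM at 0 h, 25.4 and 25.1 FPKM at 6 h and 8.08 and 8.21 FPKM at 24 h in WT cells. The early rise was 0.35 ± 0.0522 on the log2 scale (SE, adjusted p = 8.8e-04). From 6 to 24 h it fell by 1.52 ± 0.0522 (SE, adjusted p = 4.4e-07), and at 24 h its mean FPKM was 41.6% of that at 0 h. TIMP3 was the only 1 of the 6 tested genes that ended below its 0 h level in WT cells by this test.

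TIMP2 dipped and recovered. It measured 40.2 and 39.0 FPKM at 0 h, 30.5 and 30.1 FPKM at 6 h and 39.0 and 37.6 FPKM at 24 h in WT cells. It fell by 0.37 ± 0.0492 (SE, adjusted p = 4.4e-04) to 6 h and rose by 0.33 ± 0.0492 (SE, adjusted p = 9.3e-04) to 24 h, where the difference from 0 h was -0.05 ± 0.0492 (SE, adjusted p = 0.44).

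The other 4 enzymes stayed low. MMP3 was between 0.282 and 0.590 FPKM in the 4 stimulated WT libraries, MMP9 between 0.408 and 0.576 FPKM and MMP10 between 0.104 and 0.331 FPKM, above each gene's 0 h libraries in every case. MMP15 measured 0.361 and 0.405 FPKM at 6 h and 1.29 and 0.981 FPKM at 24 h, below its 0 h libraries at 6 h and above both at 24 h. None of the 4 reached the filter, so no test of theirs enters the counts above. When every feature was tested without a filter, MMP3 differed from 0 h at 6 h by 0.57 ± 0.0623 (SE, adjusted p = 8.3e-04) and MMP9 by 0.54 ± 0.119 (SE, adjusted p = 0.015) on the log2 scale. MMP15 differed by -0.49 ± 0.0917 (SE, adjusted p = 0.0077), and MMP10 by 0.20 ± 0.0730 (SE, adjusted p = 0.087). These differences are those of values mostly under 1 FPKM, whose precision is unknown without fragment numbers.

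**Figure D2:**
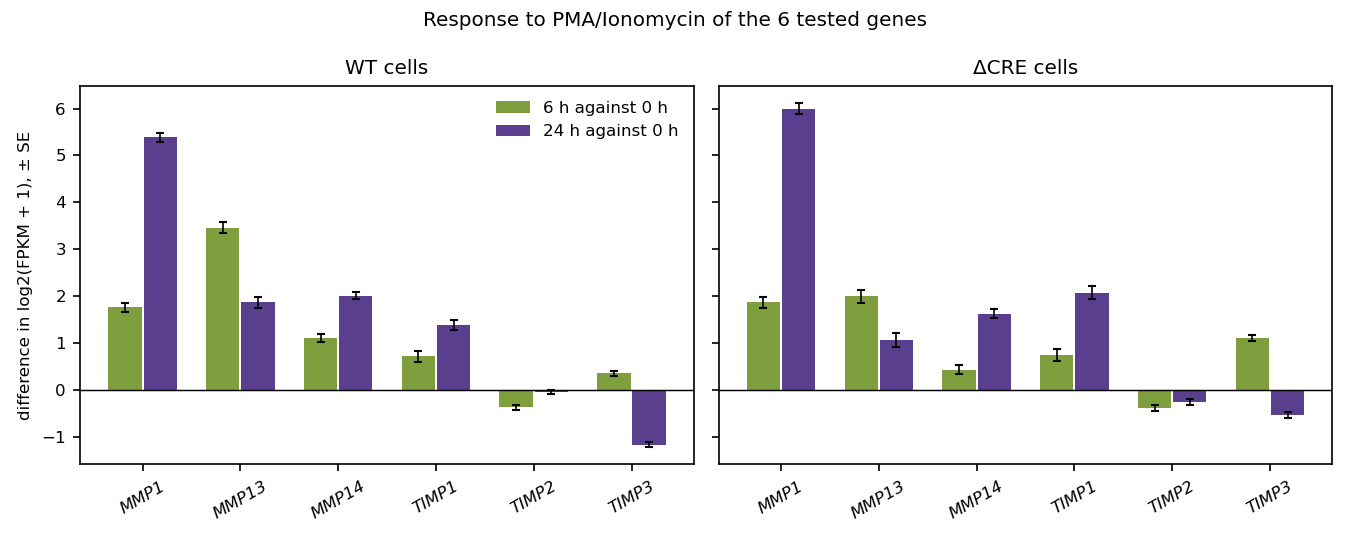
Differences of log2(FPKM + 1) from 0 h (vertical axis, bars start at 0, error bars are SE of the limma model) for the 6 tested genes at 6 h (green) and 24 h (purple) in WT (left) and ΔCRE cells (right, where 0 h is 1 library). MMP1 reached 5.39 in WT and 6.00 in ΔCRE cells at 24 h, and MMP13 reached 3.46 in WT and 1.99 in ΔCRE cells at 6 h.

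MMP13 and TIMP3 peaked at 6 h and MMP1, MMP14 and TIMP1 were highest at 24 h in ΔCRE cells too. As in WT cells, a difference of MMP1 and MMP13 from 0 h was built into their selection by the filter. Against the single ΔCRE 0 h library, the same 5 genes rose by 6 h as in WT cells, beside 16.8% of all tested features, and TIMP2 fell, beside 13.0%. At 24 h MMP1, MMP13, MMP14 and TIMP1 were higher than at 0 h, beside 20.6% of all, and TIMP2 and TIMP3 were lower, beside 21.0%. Between 6 and 24 h, where both groups have 2 libraries, MMP1, MMP14 and TIMP1 rose, beside 22.1% of all, and MMP13 and TIMP3 fell, beside 27.5%. TIMP2 changed by 0.13 ± 0.0492 on the log2 scale in that step (SE, adjusted p = 0.057), and passed the threshold without the filter (adjusted p = 0.031) and after rescaling to TPM (adjusted p = 0.012). That rescaling moved the median of all features to -0.13 for 6 h against 0 h, and the share of higher among all calls from 56.4% to 31.8% there and from 44.6% to 60.7% between 6 and 24 h.

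With ΔCRE 0 h replicate 1 included, the ΔCRE comparisons with 0 h were altered for the genes in which that library differs. TIMP1 measured 855 FPKM in it and 109 FPKM in replicate 2, and the log2 difference of 6 h from 0 h turned from 0.74 ± 0.134 (SE, adjusted p = 0.0039) to -0.74 ± 0.759 (SE, adjusted p = 0.48). MMP1 measured 12.4 and 0.157 FPKM in these libraries, and its step to 6 h went from 1.87 ± 0.115 (SE, adjusted p = 9.3e-06) to 0.10 ± 0.897 (SE, adjusted p = 0.94). MMP14, with 32.7 and 21.9 FPKM, went from 0.43 ± 0.0942 (SE, adjusted p = 0.010) to a log2 difference of 0.15 (adjusted p = 0.54).

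After stimulation, ΔCRE cells had less MMP13 and MMP14 and more TIMP3 than WT cells, at 6 as well as at 24 h. At 6 h, 2 of the 6 tested genes were lower (MMP13 and MMP14), beside 6.22% of all tested features, and 1 was higher (TIMP3), beside 3.62%. At 24 h the same 2 genes were lower, beside 3.97% of all, and 3 were higher (MMP1, TIMP1 and TIMP3), beside 2.35%. Higher calls made up 37.2% of all calls at 24 h, and 24.7% after rescaling to TPM. At 0 h none of the 6 passed the threshold in limma in either direction, beside 0.657% of all features higher and 1.03% lower, and 2 of them had an unadjusted p under 0.05. MMP14 had been named in the study from these libraries, so its direction is not independent evidence here.

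**Figure D3:**
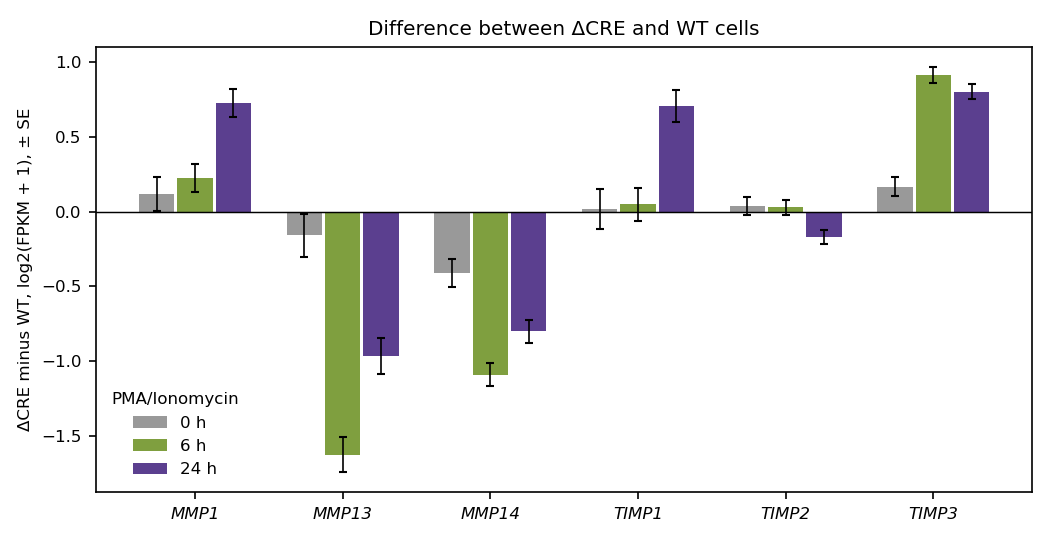
ΔCRE minus WT differences of log2(FPKM + 1) (vertical axis, bars start at 0, error bars are SE of the limma model) for the 6 tested genes at 0 h (grey, 1 ΔCRE library), 6 h (green) and 24 h (purple). MMP13 and MMP14 lie below 0 and TIMP3 above 0 at 6 and 24 h, while MMP1 and TIMP1 differed at 24 h.

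MMP13 showed the largest difference between the genotypes among the 6 genes. At 6 h it measured 2.56 and 3.62 FPKM in ΔCRE cells, against 11.4 and 11.6 FPKM in WT cells, and at 24 h 1.15 and 1.09 FPKM against 3.26 and 3.04 FPKM. The ΔCRE libraries were under the WT libraries without overlap at each time, with a mean FPKM that was 26.8% of the WT mean at 6 h and 35.6% at 24 h. The log2 differences were -1.63 ± 0.118 (SE, adjusted p = 1.5e-04) and -0.97 ± 0.118 (SE, adjusted p = 0.0031). The single ΔCRE 0 h library had 0.0194 FPKM, under the WT libraries, and FPKM values this low are imprecise. At 6 h MMP13 was above MMP1 (2.75 and 2.48 FPKM) in both WT libraries. It was below MMP1 (2.84 and 3.64 FPKM) in both ΔCRE libraries, where the 2 genes were nearly level in replicate 2.

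MMP14 measured 29.7 and 29.8 FPKM in ΔCRE cells at 6 h, against 66.6 and 62.6 FPKM in WT cells. At 24 h it measured 72.7 and 66.5 FPKM, against 126 and 118 FPKM. The groups did not overlap at either time, and the ΔCRE mean was 46.1% of the WT mean at 6 h and 57.1% at 24 h. The log2 differences were -1.09 ± 0.0769 (SE, adjusted p = 1.4e-04) at 6 h and -0.80 ± 0.0769 (SE, adjusted p = 0.0012) at 24 h. In ΔCRE cells at 6 h MMP14 was thus near the level of unstimulated WT cells (31.5 and 27.5 FPKM). At 0 h the log2 difference was -0.41 ± 0.0942 (SE, adjusted p = 0.077), a value that passed the threshold after rescaling to TPM (adjusted p = 0.035) and after quantile normalization (adjusted p = 0.040).

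TIMP3 measured 48.7 and 48.4 FPKM in ΔCRE cells at 6 h, against 25.4 and 25.1 FPKM in WT cells. At 24 h it measured 14.7 and 15.3 FPKM, against 8.08 and 8.21 FPKM. The replicates were close and the groups well apart, with means 1.92-fold higher in ΔCRE cells at 6 h and 1.84-fold at 24 h. The log2 differences were 0.92 ± 0.0522 (SE, adjusted p = 4.9e-05) and 0.80 ± 0.0522 (SE, adjusted p = 1.4e-04). The fall of TIMP3 between 6 and 24 h was similar in size in both genotypes, 1.52 in WT and 1.63 in ΔCRE cells on the log2 scale, and the difference of these falls was -0.11 ± 0.0739 (SE, adjusted p = 0.87).

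MMP1 and TIMP1 differed between the genotypes at 24 h. MMP1 measured 73.4 and 72.7 FPKM in ΔCRE cells at 24 h, against 43.6 and 43.7 FPKM in WT cells, a log2 difference of 0.73 ± 0.0937 (SE, adjusted p = 0.0041). TIMP1 measured 492 and 434 FPKM, against 303 and 263 FPKM, a log2 difference of 0.71 ± 0.109 (SE, adjusted p = 0.0087). Both genes were higher in both ΔCRE libraries, by 1.67-fold and 1.63-fold in mean FPKM. The TIMP1 call was lost when WT 24 h replicate 2 (adjusted p = 0.065) or ΔCRE 24 h replicate 1 (adjusted p = 0.057) was left out, and the MMP1 call was lost with a pseudocount of 0.1 (adjusted p = 0.057).

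At 6 h these 2 genes did not pass the threshold in the 11 libraries. MMP1 measured 2.84 and 3.64 FPKM in ΔCRE cells, against 2.75 and 2.48 FPKM in WT cells, a log2 difference of 0.22 ± 0.0937 (SE, adjusted p = 0.19) that was 0.36 without ΔCRE 6 h replicate 1 (adjusted p = 0.05, just past the threshold). TIMP1 measured 190.1 and 177 FPKM, against 184 and 171 FPKM, a log2 difference of 0.05 ± 0.109 (SE, adjusted p = 0.83). The ranges of MMP1 did not overlap at 6 h, and those of TIMP1 did.

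TIMP2 differed little. It measured 30.8 and 31.0 FPKM in ΔCRE cells at 6 h, against 30.5 and 30.1 FPKM in WT cells (log2 difference 0.03 ± 0.0492, SE, adjusted p = 0.78). At 24 h it measured 33.3 and 34.5 FPKM, against 39.0 and 37.6 FPKM. The ranges did not overlap at 24 h, and the log2 difference of -0.17 ± 0.0492 (SE, adjusted p = 0.086) missed the threshold.

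The genotype differences at 6 and 24 h keep their size when ΔCRE 0 h replicate 1 enters the model, since it belongs to neither time, but the common estimate of the spread grows. With it, MMP13 at 6 h remained past the threshold (adjusted p = 0.010), TIMP3 and MMP14 at 6 h did not (adjusted p = 0.077 and 0.079), and none of the tested members passed at 24 h. When only the 8 libraries of 6 and 24 h were fitted, all 8 genotype calls at those times were kept.

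Whether a genotype difference itself changed with time was tested by the interaction of genotype and time. Rises are compared here as differences of log2(FPKM + 1). For MMP13 the ratio of mean FPKM went the other way, 159-fold from 0 to 6 h in ΔCRE and 83.5-fold in WT cells. Its level at 0 h was 0.0194 FPKM in the single ΔCRE library and 0.138 FPKM in the WT mean, and values this low are imprecise. For the step from 0 to 6 h, with 1 ΔCRE library at 0 h, MMP13 rose less in ΔCRE cells (log2 -1.47 ± 0.187, SE, adjusted p = 0.017), beside 0.187% of all features, and TIMP3 rose more (0.75 ± 0.0826, SE, adjusted p = 0.0080), beside 0.08%. MMP14 had a difference of -0.68 ± 0.122 (SE, adjusted p = 0.095). After rescaling to TPM neither MMP13 (adjusted p = 0.056) nor TIMP3 (adjusted p = 0.055) passed, and MMP14 did (log2 -0.70, adjusted p = 0.037). For MMP13 the call was lost when either WT library of 0 h (adjusted p = 0.066 and 0.070) or of 6 h (adjusted p = 0.081 and 0.085) was left out, with quantile normalization (adjusted p = 0.099), and with a pseudocount of 0.1, where it was -0.89 (adjusted p = 0.42). For the step from 6 to 24 h none of the 6 genes passed in limma, beside 0.142% of all features in the positive and 0.0178% in the negative direction, although 5 of them had an unadjusted p under 0.05. TIMP1 had the lowest adjusted p of these, with 0.66 ± 0.155 (SE, adjusted p = 0.28). That MMP1 and TIMP1 differed between the genotypes at 24 h and not at 6 h is therefore not shown to be a difference between the times.

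The 4 enzymes below the filter showed no difference between the genotypes by the test of all features without a filter, with adjusted p between 0.51 and 1 at 6 and 24 h. At 6 h MMP9 was lower in both ΔCRE libraries (0.254 and 0.387 FPKM) than in both WT libraries (0.408 and 0.576 FPKM), and MMP10 was lower too (0.0991 and 0.0882 FPKM, against 0.104 and 0.239 FPKM). MMP3 and MMP15 overlapped between the genotypes at 6 h, and at 24 h all 4 overlapped.

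The summed levels shifted the proportion of enzyme to inhibitor RNA. In WT cells the 7 enzymes summed to 32.7 and 28.8 FPKM at 0 h, 82.2 and 78.5 FPKM at 6 h and 175 and 167 FPKM at 24 h. The sum of the enzymes divided by that of the 3 inhibitors was 0.184 and 0.183 at 0 h, 0.343 and 0.348 at 6 h and 0.5001 and 0.540 at 24 h. In ΔCRE cells it was 0.132 in the single 0 h library, 0.135 and 0.150 at 6 h and 0.277 and 0.294 at 24 h. The ratio was lower in ΔCRE cells at 6 and at 24 h without overlap of libraries, and no test was run on these sums. At 24 h TIMP1 made up 85.2% to 91.1% of the inhibitor sum, and its genotype call there depended on single libraries. The sum leaves out 2 inhibitors described below. At 24 h TFPI2 measured 199 and 198 FPKM in WT and 140 and 135 FPKM in ΔCRE cells, and TIMP4 6.83 and 6.59 against 8.40 and 7.18 FPKM.

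**Figure D4:**
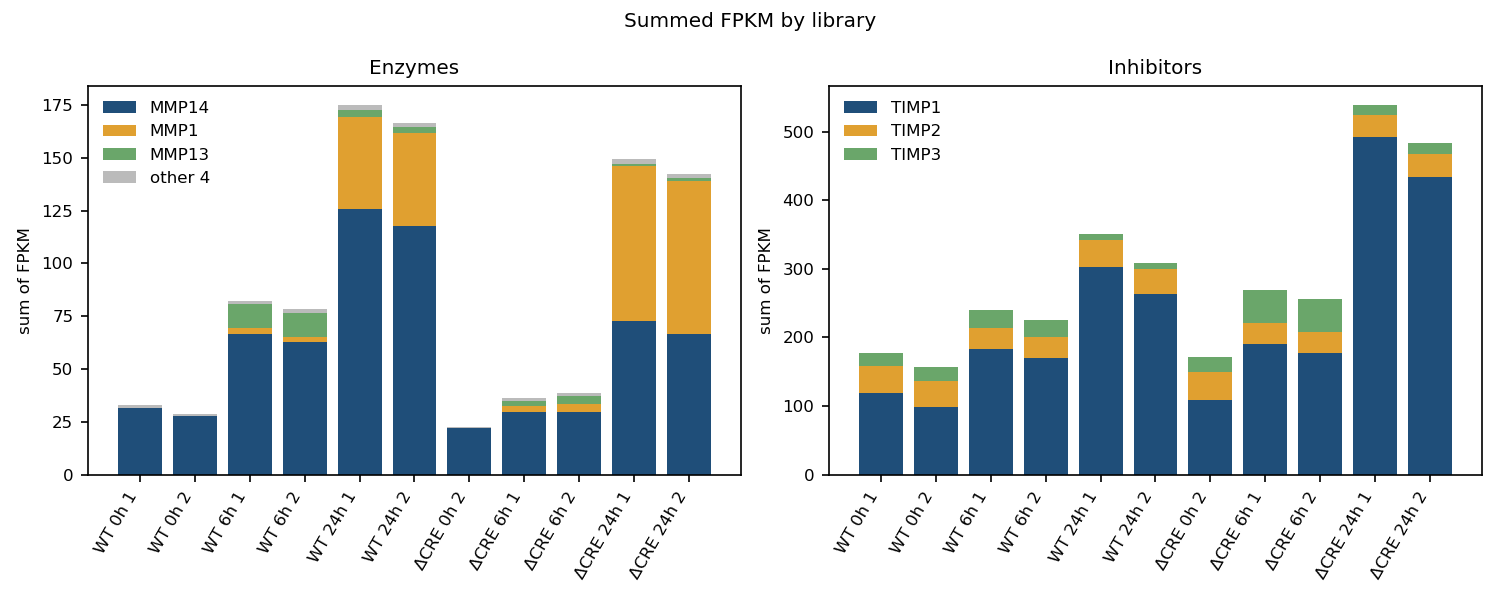
Summed FPKM (vertical axes, from 0) of the enzymes (left, MMP14, MMP1, MMP13 and the other 4) and of the inhibitors (right) in each of the 11 libraries (horizontal axes, genotype, time and replicate). At 24 h MMP1 fills about as much of the enzyme bar as MMP14 in ΔCRE cells, and much less than MMP14 in WT cells.

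The composition of the enzyme sum at 24 h differed between the genotypes. In WT cells MMP1 made up 24.9% and 26.2% of it, against 49.1% and 51.1% in ΔCRE cells, while MMP14 made up 71.8% and 70.7% in WT and 48.7% and 46.8% in ΔCRE cells. At 6 h MMP13 contributed 13.9% and 14.8% in WT cells and 7.03% and 9.42% in ΔCRE cells. Secreted MMP1 thus had about the share of membrane-bound MMP14 in ΔCRE cells, and well under it in WT cells. The quotient of MMP14 over TIMP2, the pair that acts on proMMP2, was 2.18 and 2.08 in WT and 0.962 and 0.961 in ΔCRE cells at 6 h, and 3.23 and 3.14 against 2.18 and 1.92 at 24 h. The quotient of MMP14 over TIMP3 was 2.62 and 2.49 in WT and 0.609 and 0.616 in ΔCRE cells at 6 h, and 15.6 and 14.4 against 4.96 and 4.34 at 24 h, so that no ΔCRE library reached a WT library of the same time.

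Other genes of the pathway were taken from 4 lists. Of the 16 further MMP genes looked up, 13 stayed under 1 FPKM in all 11 libraries and 2 were tested. MMP11, with a mean of 0.969 FPKM, fell just short of the filter and was not tested. It measured 0.576 and 0.659 FPKM at 0 h and 1.73 FPKM in both libraries at 24 h in WT cells. In ΔCRE cells at 24 h it measured 2.02 and 1.86 FPKM. MMP19 was higher at 24 h than at 0 h in WT cells by 0.81 ± 0.121 on the log2 scale (SE, adjusted p = 6.5e-04). It passed the filter only through its 24 h libraries, so that a rise at 24 h was built into its selection. Neither MMP19 nor MMP24 differed between the genotypes. MMP2, the gelatinase that MMP14 activates, had a mean of 0.0512 FPKM over the 11 libraries.

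Of 7 further inhibitors and clearance genes, 4 were tested. TFPI2, a serine protease inhibitor that also acts on MMPs, rose in WT cells by 2.14 ± 0.0772 at 6 h (SE, adjusted p = 2.3e-07) and 2.93 ± 0.0772 at 24 h (SE, adjusted p = 5.2e-08), and its log2 difference between ΔCRE and WT cells was -0.53 ± 0.0772 at 24 h (SE, adjusted p = 0.0070). TIMP4, the remaining TIMP, went the other way and fell by 0.98 ± 0.108 at 6 h (SE, adjusted p = 1.7e-04) and by 1.08 ± 0.108 at 24 h (SE, adjusted p = 7.5e-05) in WT cells. LRP1, an endocytic receptor that clears MMP and TIMP complexes, fell by 0.35 ± 0.0833 at 6 h (SE, adjusted p = 0.0091) and was higher by 0.28 ± 0.0833 at 24 h (SE, adjusted p = 0.020). RECK, a membrane-anchored MMP inhibitor, had a mean of 1.11 FPKM and passed the threshold in none of the 4 comparisons of these lists (WT at 6 and 24 h against 0 h, and ΔCRE against WT at 6 and 24 h). Of the 4 tested genes 1 rose and 2 fell in WT cells at 6 h, beside 23.3% and 21.1% of all features, and 2 rose and 1 fell at 24 h, beside 26.5% and 28.2%. Between the genotypes TFPI2 alone passed, at 24 h, beside 3.97% of all features lower.

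Genes that activate or dock MMPs also responded. Of 9 tested genes in the list, 5 rose and 1 fell in WT cells at 6 h, and 4 rose and 2 fell at 24 h, beside the shares of all features given above. PCSK5 fell at both times, but it passed the filter only through its 0 h libraries (1.60 and 1.41 FPKM in WT cells). All its stimulated libraries were at most 0.967 FPKM, so that a fall was built into its selection. The largest changes of the list were those of the plasminogen activator genes and their receptor. PLAUR, the urokinase receptor, rose by 2.35 ± 0.0653 on the log2 scale at 6 h (SE, adjusted p = 4.1e-08), and PLAT, the tissue plasminogen activator, by 2.17 ± 0.0794 (SE, adjusted p = 2.5e-07). PLAU, the urokinase gene, rose by 0.96 ± 0.04997 at 6 h (SE, adjusted p = 2.2e-06) and differed from 0 h by -1.26 ± 0.04997 at 24 h (SE, adjusted p = 4.9e-07). Between the genotypes PLAT had a log2 difference of -1.83 ± 0.0794 at 6 h (SE, adjusted p = 1.3e-05) and of -1.02 ± 0.0794 at 24 h (SE, adjusted p = 3.2e-04). At 6 h 1 gene of the list was higher in ΔCRE cells (PLAU), beside 3.62% of all features, and 1 was lower (PLAT), beside 6.22%. At 24 h 1 was higher (PLAUR), beside 2.35% of all, and 1 was lower (PLAT), beside 3.97%.

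Of 14 tested transcription factors known to act on MMP promoters, 6 rose and 3 fell in WT cells at 6 h, beside 23.3% and 21.1% of all features, and 6 rose and 5 fell at 24 h, beside 26.5% and 28.2%. At 6 h JUNB rose by 2.61 ± 0.0846 (SE, adjusted p = 1.2e-07), ETS1 by 2.53 ± 0.0587 (SE, adjusted p = 1.5e-08) and FOSL1 by 2.16 ± 0.0665 (SE, adjusted p = 8.0e-08) on the log2 scale. JUNB and FOSL1 encode AP-1 subunits. Between the genotypes ETS1 and FOSL2 were lower in ΔCRE cells at 6 h, beside 6.22% of all features, and at 24 h, beside 3.97%. ETS1 is the gene whose promoter was edited, and the study tested the deletion by its ETS1 level, so its direction is not independent evidence. RUNX2 was higher at 6 h, beside 3.62% of all, while JUNB and FOSL1 did not pass the threshold at either time.

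The features whose course over the 11 libraries was most like that of each gene are given by Pearson's r of log2(FPKM + 1), as a description without a test, since the 11 libraries share 6 conditions. For MMP1 they were ARID3A, TBC1D8 and PTPRR (an r of 0.994 each), for MMP13 STAT3, MYO1C and SOD2 (0.971 to 0.975) and for MMP14 ZNF589, STAP2 and GSTO1 (0.982 to 0.989). For TIMP1 they were ZMIZ1-AS1, LGALS1 and FN1 (0.973 to 0.982), for TIMP2 TBX1, CTIF and ANKS6 (0.962 to 0.980) and for TIMP3 CCT2, ARRDC3 and FABP5 (0.980 to 0.982). None of the 10 genes was among the nearest features of another. Within the 6 tested genes the highest r was that of MMP1 with TIMP1 (0.964), and the lowest was that of MMP13 with TIMP2 (-0.759).

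**Figure D5:**
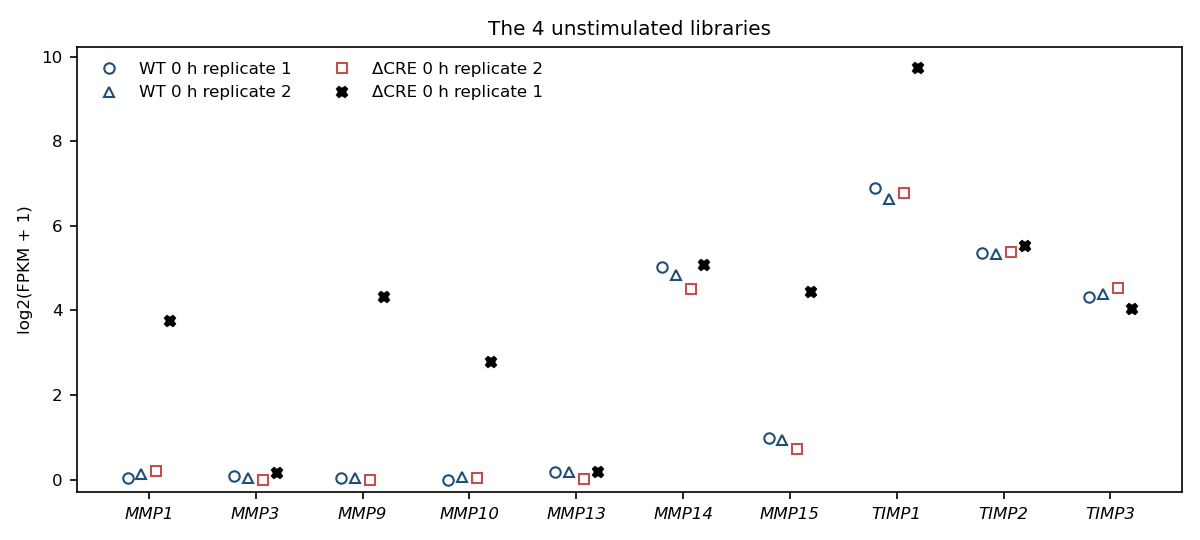
log2(FPKM + 1) (vertical axis) of the 10 genes (horizontal axis) in the 4 unstimulated libraries, with WT replicates 1 and 2 in blue, ΔCRE replicate 2 in red and the library labelled ΔCRE replicate 1 as black crosses. MMP1, MMP9, MMP10, MMP15 and TIMP1 lie far above the other libraries in the latter, and TIMP3 lies below them.

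The library labelled ΔCRE 0 h replicate 1 had another set of MMPs. MMP15 measured 20.5 FPKM in it, MMP9 19.1 FPKM and MMP10 5.90 FPKM, against at most 1.29, 0.589 and 0.420 FPKM in the other 11 libraries. Its MMP13 (0.135 FPKM), MMP14 (32.7 FPKM) and TIMP2 (45.2 FPKM) lay near the WT 0 h libraries in FPKM, and its TIMP3 (15.5 FPKM) was below both. The sum of FPKM was larger in this library, and after rescaling to TPM its MMP13 (0.0950 against 0.225 and 0.249 in WT 0 h), MMP14 (23.0 against 52.5 and 48.6) and TIMP2 (31.8 against 66.9 and 69.0) were lower than in both WT libraries. MMP12 (21.4 FPKM) and MMP7 (13.6 FPKM) of the same chromosome 11 cluster were also present there, against at most 0.0821 FPKM and 0 in the other libraries. The part of the gut epithelium markers in these values was not tested.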

How the data were processed

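The labels name Trizol extraction with a later clean-up on Ribospin II columns, the study's methods name the columns alone, and libraries were TruSeq stranded mRNA. Per the labels, reads were trimmed with cutadapt and processed with TopHat and Cufflinks, and the study mapped them to hg19. The authors deposited FPKM values, 1 column per library and 24331 features. All 12 columns were used, and 2 column names with a digit in place of a letter were matched to the only label left. Samples were grouped by genotype and time in the labels. The study calls the 2 libraries of a group biological replicates and does not say whether they were separate cultures, so p-values measure the spread between these libraries only. FPKM values keep no depth, and no counting interval was computed.

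The deposited FPKM values were put on the log2 scale with a pseudocount of 1 and fitted with limma 3.58.1 in R 4.3.3 (lmFit, eBayes with trend), 1 model of 6 groups and 11 libraries, over 11256 features with a mean of at least 1 FPKM. The threshold was a Benjamini-Hochberg adjusted p under 0.05. This differs from Cuffdiff, which needs reads. The script was tested on simulated data. The 10 genes and the gene lists were chosen with earlier results of these data known. Beside the 10 genes, the text names from each list the 3 tested genes with the largest change among those past the threshold in 4 comparisons, MMP2 and RECK, and for each tested gene the 3 features of highest r. A gene of a list is not reported here, and its list was counted without it. MMP24, MMP11, PCSK5, FOSL2, RUNX2, MMP7 and MMP12 were named after their values were seen, as were the overlapping genes and the single luminal markers.

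The alternatives were all 12 libraries, a pseudocount of 0.1, no filter, a mean of at least 5 FPKM, rescaling to TPM, quantile normalization, eBayes without trend, the replicate number as a block, a separate model of each pair of groups and leaving out each library. A fit of the 8 libraries at 6 and 24 h was added after seeing the data. Promoter sequences came from RefSeq (GRCh38.p14) and positions from GRCh37 with GENCODE. Other calculations used Python 3.11.15.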

Additional observations from a re-analysis of the deposited data

Results flagged for a closer look

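The response from 0 to 6 h of MMP13 and TIMP3 differed between the genotypes in a test of the difference itself, on the scale of log2(FPKM + 1). For MMP13 the ratio of mean FPKM went the other way, 159-fold in ΔCRE and 83.5-fold in WT cells, from very low values at 0 h. MMP13 had an interaction of -1.47 on the log2 scale (adjusted p = 0.017) and TIMP3 of 0.75 (adjusted p = 0.0080), each resting on 1 ΔCRE library at 0 h. With all 12 libraries neither passed (adjusted p = 0.24 and 0.52), nor after rescaling to TPM (adjusted p = 0.056 and 0.055), where MMP14 did (adjusted p = 0.037).

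ΔCRE 0 h replicate 1 entered no comparison, and 5 genes were in it at 1 FPKM or more and at least 2-fold above the higher WT 0 h library. These were MMP1 (12.4 FPKM), MMP9 (19.1 FPKM), MMP10 (5.90 FPKM), MMP15 (20.5 FPKM) and TIMP1 (855 FPKM). The gut epithelium markers that were high in the same library summed to 3602 FPKM, and their part in these values was not tested.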

How the results depend on the processing

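Of the calls of the 6 tested genes, those within WT cells and between the genotypes at 6 and 24 h kept their direction under every alternative run. Including ΔCRE 0 h replicate 1 lowered the number of genes called, although 8 of the 10 genes were then tested. The number fell to 3 in each of 4 time comparisons (WT 6 h against 0 h, WT 24 h against 6 h, ΔCRE 6 h against 0 h and ΔCRE 24 h against 0 h). It fell to 1 between the genotypes at 6 h, and to 0 between the genotypes at 24 h and for the interaction from 0 to 6 h. Calls over all features dropped as well, in WT 6 h against 0 h from 2620 higher and 2373 lower of 11256 to 606 and 251 of 11676. Between the genotypes they dropped from 407 higher and 700 lower to 5 and 15 at 6 h, and from 265 and 447 to 8 and 9 at 24 h. Without a filter, where all 10 genes were tested, 8 were called in WT at 24 h against 0 h, beside 3397 higher and 3218 lower of 17700 features. In ΔCRE at 24 h against 6 h 9 were called, beside 2932 higher and 2973 lower of 17700. Between the genotypes at 0 h, 1 gene (MMP14) was called with TPM, with quantile normalization and with the replicate block. For the interaction from 0 to 6 h the count was 1 with a pseudocount of 0.1, a mean of at least 5 FPKM or quantile normalization (TIMP3 in each), 1 with TPM (MMP14, while MMP13 and TIMP3 were lost), and 1 to 2 when a library was left out.

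The deviations of libraries with the same replicate number correlated by -0.068 to 0.202 over 10 pairs of groups, a measure that leaves out a shift common to all features. With the replicate number as a block, calls over all 11256 features rose, between the genotypes at 6 h from 407 higher and 700 lower to 796 and 1009. Whether the numbers pair the libraries was not decided by these values. The replicate block called 1 gene (TIMP1) in the interaction from 6 to 24 h, MMP14 in that from 0 to 6 h (adjusted p = 0.015), TIMP2 in ΔCRE at 24 h against 6 h (adjusted p = 0.03) and TIMP2 between the genotypes at 24 h (adjusted p = 0.038), and 60 of its 66 values of single genes kept their direction and side of the threshold.

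The call that turned its direction was TIMP1 in ΔCRE at 6 h against 0 h (-0.74 with all 12 libraries). The other values that changed sign, here on the log2 scale, had not passed the threshold. Between the genotypes at 0 h these were MMP1 (-0.27), TIMP1 (-0.0020) and TIMP2 (-0.0043) with quantile normalization, and TIMP3 (-0.075) with all 12 libraries. For the interaction from 0 to 6 h they were MMP1 (-1.66 with all 12 libraries, -0.35 with a pseudocount of 0.1), TIMP1 (-1.45 with all 12 libraries, -0.054 with the replicate block) and TIMP2 (0.024 with quantile normalization). Leaving out 1 library gave -0.028 to 0.246 for MMP1, -0.103 to 0.169 for TIMP1 and -0.032 to 0.0077 for TIMP2 in that interaction, and for TIMP1 -0.119 to 0.153 between the genotypes at 0 h and -0.0039 to 0.104 at 6 h. The cause of these changes was not tested. Leaving out ΔCRE 0 h replicate 2 left no ΔCRE library at 0 h and gave no value there. Unknown depth limits the values below 1 FPKM.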
